A study of Mus musculus with 16 samples.

Results

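The 31 genes described here are the interferon-gamma receptors, their kinases, and the transcription factors, GTPases and other genes that interferon-gamma is known to induce, measured in whole mammary tumours of obese mice. They were taken by symbol from a fixed list, and all 31 were found among the 47311 genes to which the deposited transcripts could be matched. The list holds 2 receptor chains, 2 kinases, 1 inhibitor, 3 transcription factors, 10 guanylate-binding proteins (GBPs), 9 immunity-related GTPases (IRGs) and 4 other induced genes.

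Of the 16 tumours, 8 came from mice given an antibody against PD-1, an inhibitory receptor on T cells, and 8 from mice given an IgG2a isotype control antibody. All mice were female C57BL/6J animals on a diet with 60% of its calories from fat between 8 and 26 weeks of age, and all carried E0771-luciferase cells, a mouse mammary cancer line of the same strain with a luciferase reporter, as 250000 cells in 25% matrigel in the mammary gland numbered 4. Antibody was injected into the peritoneum at 200 ug per mouse, first 3 days after the cells and then every 3 days, and the mice were killed at day 21. Lean mice and mice without antibody were not analysed here, so diet is shared by both groups and every tumour descends from the same cell line. The labels give each tumour an animal number of its own. The comparison asks how the interferon-gamma response of the tumour differs between checkpoint blockade and the isotype control, and which of its genes follow the level of Ifng, the gene of interferon-gamma itself, from tumour to tumour.

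As background, interferon-gamma is made mainly by activated T cells and NK cells. It binds a receptor of IFNGR1 and IFNGR2 chains, the receptor activates the kinases JAK1 and JAK2, and their signal leads through GAS elements in DNA to the induction of, among others, the transcription factor IRF1. IRF1 acts on ISRE elements, and many GBP and IRG genes, whose products attack membranes around intracellular microbes in mice, are known to respond through such elements. SOCS1 is induced by the same route and inhibits the kinases. In tumours these genes are widely read as the imprint of interferon-gamma on cancer cells and on infiltrating cells.

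The DNA before the start sites is shown first because GAS and ISRE elements often lie there. RefSeq promoter windows of build GRCm38.p6 were found for 20 of the 31 genes, in 24 windows, and the 250 bases before each start were searched on both strands for the GAS letters TTCNNNGAA and for the ISRE core GAAANNGAAA, which reads TTTCNNTTTC on the other strand. GAS letters stood before 10 of the 20 genes, against 8.13% of all 27025 genes with a window, and the ISRE core stood before 10 of the 20, against 3.46% of all genes. At least 1 of them stood before 14 of the 20 genes, against 11.1% of all genes, and 6 genes had both. No GAS match overlapped an ISRE match in these windows. The stretches below run 5′ to 3′ along the gene's strand, with the matching letters in capitals. They are those of Irf1 and Socs1, the 2 genes whose r with Ifng passed the adjusted test, of Gbp2, and of 5 IRG genes.
Irf1, chr11:53769912-53769944, plus strand: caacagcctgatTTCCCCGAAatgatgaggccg
Socs1, chr16:10785592-10785631, minus strand: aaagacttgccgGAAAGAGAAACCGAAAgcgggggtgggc
Gbp2, chr3:142620592-142620625, plus strand: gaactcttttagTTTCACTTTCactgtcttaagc
Igtp, chr11:58199499-58199543, plus strand: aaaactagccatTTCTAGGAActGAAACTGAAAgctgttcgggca
Irgm2, chr11:58214890-58214934, plus strand: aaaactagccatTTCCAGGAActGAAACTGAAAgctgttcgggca
Tgtp1, chr11:48992302-48992346, minus strand: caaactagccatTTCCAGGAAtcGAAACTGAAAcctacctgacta
Tgtp2, chr11:49064261-49064305, minus strand: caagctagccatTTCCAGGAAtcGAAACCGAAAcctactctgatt
Irgm1, chr11:48871423-48871462, minus strand: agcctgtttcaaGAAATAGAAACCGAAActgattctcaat

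In Irf1 the GAS match stood alone, and in Socs1 and Irgm1 the capitals hold 2 ISRE matches that overlap each other. Igtp and Irgm2 shared 44 of 45 letters of a stretch in which a GAS match is followed closely by an ISRE core, and Tgtp1 and Tgtp2 shared 37 of 45 letters of the same arrangement with each other and 32 to 34 with Igtp and Irgm2. The letters of neither motif were found in the windows of the other 6 genes, Ifngr1, Ifngr2, Jak1, Jak2, Ifi47 and Ubd. A match is a run of letters and does not show that a factor binds there.

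The tables held 59036535 to 82591064 estimated reads per tumour, and CPM values below are counts scaled to these totals with TMM factors. Before the results, 3 tumours need naming, since they decide several values. Tumour 7 of the IgG2a group carried 9375.8 CPM summed over 6 adipocyte markers, 155-fold the median of the 16 tumours, with erythroid markers at 256-fold and endothelial markers at 11.3-fold of it. Tumour 3 of the IgG2a group carried 28526 CPM of skeletal muscle markers. In tumour 6 of the anti-PD-1 group 38993 transcripts were detected, against at least 47997 in every other tumour. Markers of mammary epithelium, summed over Krt8, Krt18, Krt19, Epcam and Cdh1, had 49.3 to 130.1 CPM in the anti-PD-1 group and 52.2 to 441 CPM in the IgG2a group. The 441 CPM was again that of IgG2a tumour 7, at 6.72-fold of the median tumour, and the next IgG2a tumour had 79.4 CPM. The T cell markers summed to 21.2 to 97.7 CPM under anti-PD-1, with a median of 39.1, and to 16.4 to 58.4 CPM under IgG2a, with a median of 39.6.

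All 31 genes passed the filter on low counts. Across the set the levels, given as TPM, which take transcript length into account and so can be set beside each other, ran from a median of 111 TPM for Irgm1 to 0.150 TPM for Gbp11. The median was at least 10 TPM for 23 genes, from 2 to under 10 TPM for 4 and under 2 TPM for 4, while the median over all 16154 tested genes was 9.54 TPM. The top of the order was Irgm1 at 111 TPM, Gbp2 at 96.7 TPM, Igtp at 85.3 TPM, Irf1 at 75.9 TPM and Jak1 at 68.2 TPM. These neighbours overlapped widely, since single tumours ran from 46.7 to 139.7 TPM for Irgm1 and from 68.3 to 206 TPM for Gbp2.

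Below Jak1, the receptors and the other kinase had medians of 35.3 TPM for Ifngr1, 28.6 TPM for Ifngr2 and 11.4 TPM for Jak2, the lowest of the 4. At the foot of the order stood F830016B08Rik at 1.24 TPM, Gbp10 at 0.942 TPM, Ido1 at 0.339 TPM and Gbp11 at 0.150 TPM. Ifng itself had a median of 1.55 TPM, with 24 to 355 estimated reads per tumour, and Cd3e, a chain of the T cell receptor complex, had 2.39 TPM. Ifng thus ranked with the least abundant genes of the set.

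**Figure D1:**
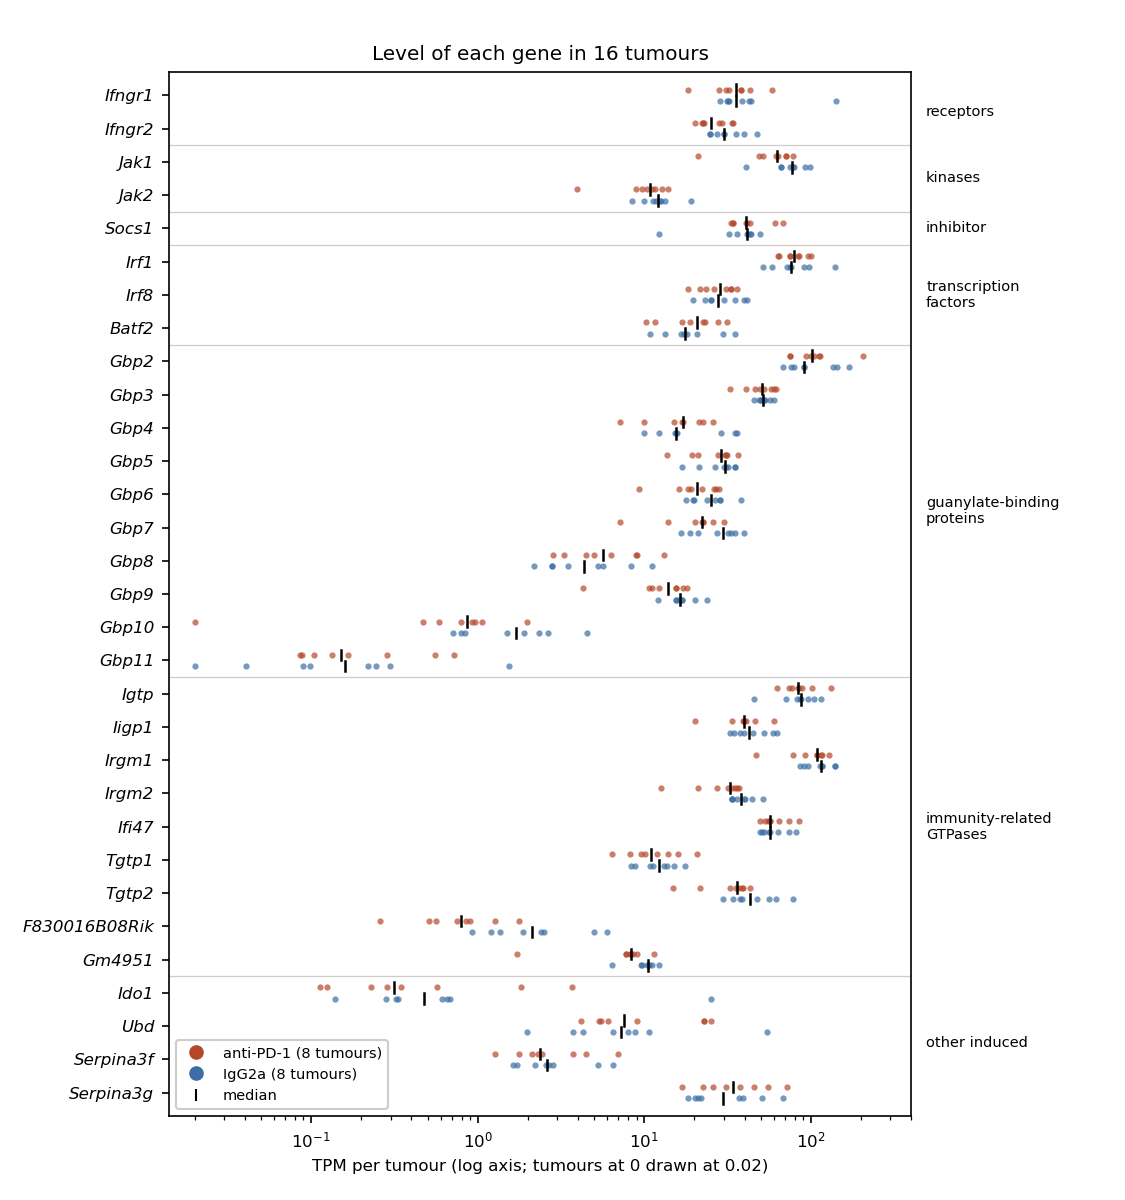
Level of the 31 genes in TPM on a log axis, 1 point per tumour, with anti-PD-1 tumours above IgG2a tumours in each row and a bar at each group's median. Irgm1, Gbp2, Igtp and Irf1 lie highest, the 4 lowest genes have medians under 2 TPM over the 16 tumours, and tumours at 0 are drawn at 0.02.

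The genes also differed in how much they varied. The SD of log2 CPM over the 16 tumours was 0.19 for Gbp3, 0.23 for Irgm1 and 0.30 for Irf1, while the median over all tested genes was 0.45. It was 1.88 for Ido1, 1.78 for Gbp10, 1.56 for Gbp11, 1.30 for Ubd and 1.11 for F830016B08Rik, and 13 of the 31 genes lay above the median of tested genes. These 5 genes were among the 7 lowest in TPM. Without the 3 tumours named above the SD was 0.62 for Gbp10, 0.67 for F830016B08Rik, 0.90 for Ubd, 1.23 for Ido1 and 1.43 for Gbp11.

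Single tumours were high or low for many genes at once. In tumour 1 of the anti-PD-1 group, which had the highest Ifng of all at 4.65 CPM, 20 of the 31 genes reached their highest value of that group. In tumour 4 of the IgG2a group, with Ifng at 0.486 CPM, 17 were at their lowest of that group. Tumour 7 of the IgG2a group, with the lowest Ifng at 0.387 CPM, was lowest of its group for 6 genes, Socs1, Batf2, Gbp2, Gbp5, Igtp and Irgm1. It was highest of its group for 10 genes, namely Ifngr1, Ifngr2, Jak2, Irf8, Gbp9, Gbp11, Tgtp2, Gm4951, Ido1 and Ubd.

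**Figure D2:**
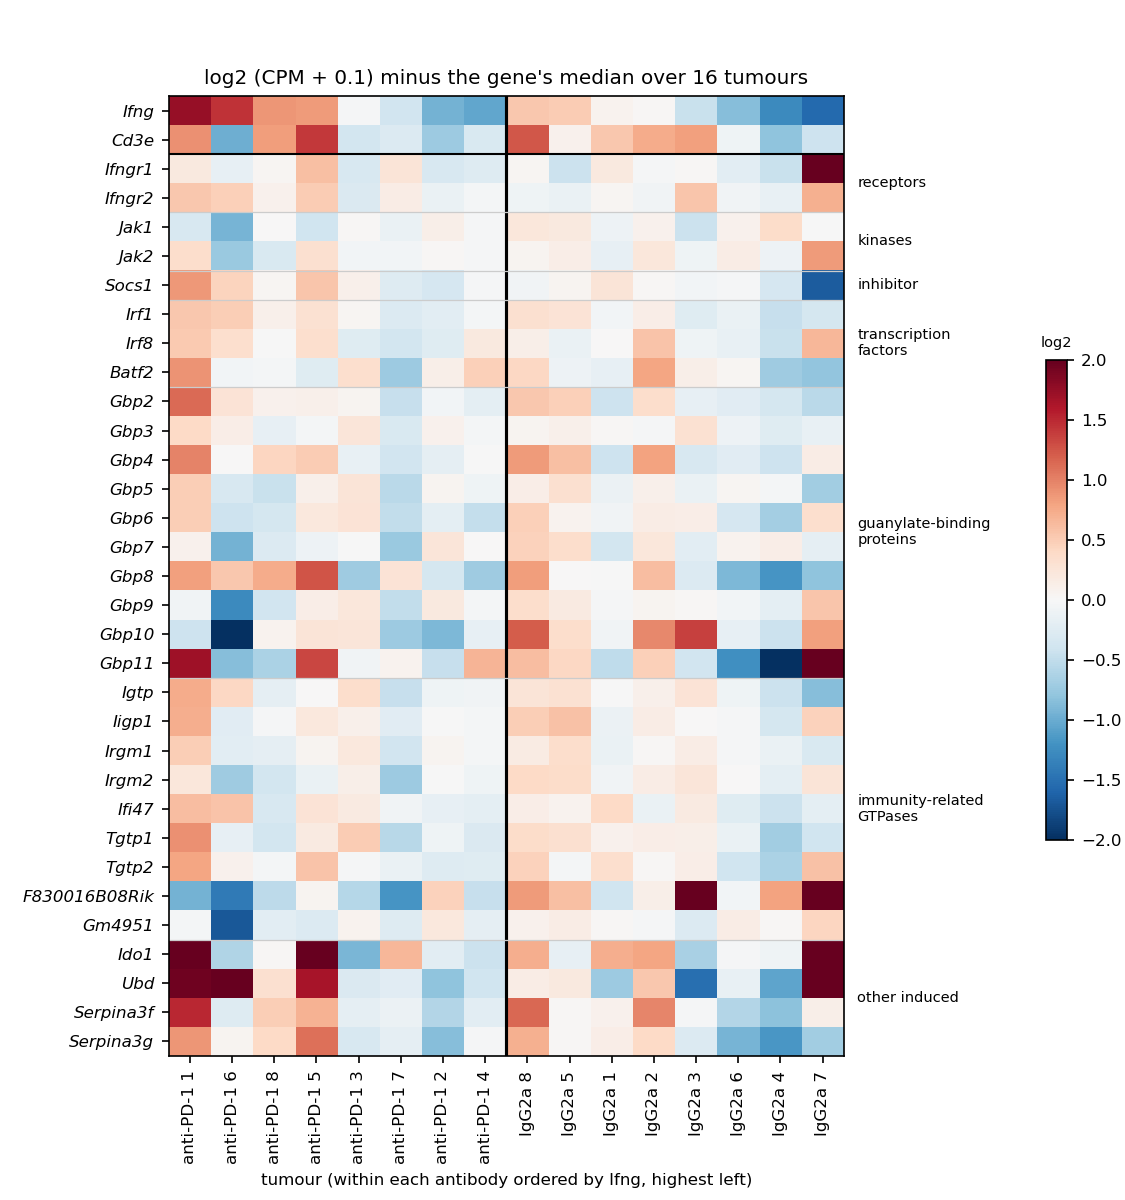
Deviation of each gene from its median over the 16 tumours, as log2 (CPM + 0.1), with anti-PD-1 tumours left of IgG2a tumours and both ordered by Ifng from high to low. Colour is limited to the range from -2 to 2, and red cells gather in anti-PD-1 tumour 1, which has the highest Ifng.

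No gene of the set passed between anti-PD-1 and IgG2a in edgeR's quasi-likelihood test with Benjamini-Hochberg adjustment, and 0% of the 16154 genes tested passed at an adjusted p of 0.05. By estimate 15 of the 31 were higher and 16 lower under anti-PD-1, with a median log2 fold change of -0.0028. Over all tested genes 43.1% were higher and the median was -0.055. At an unadjusted p under 0.05 there were 2 of the 31, Irgm2 and F830016B08Rik, both lower, against 11.4% of all genes tested, 7.9% of all with a lower and the rest with a higher estimate. DESeq2 called 4 genes of the series, 0.0143%, and limma-voom with quality weights 0, and none of the 31 was called by either. At an unadjusted p under 0.05, DESeq2 had 2 of the 31, against 6.3% of all genes, and limma-voom 5, against 21.2%. In bulk RNA, fewer cells of a type and less RNA per cell cannot be told apart, and this holds for every value below.

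Ifng had 0.592, 1.89 and 4.65 CPM (lowest, median, highest) in anti-PD-1 tumours, against 0.387, 1.14 and 1.97 CPM in IgG2a tumours. The highest 4 values of the series were in anti-PD-1 tumours, yet the groups overlapped, with 5 of 8 anti-PD-1 tumours above the IgG2a median. The log2 fold change was 0.89 ± 0.48 (SE; edgeR, unadjusted p = 0.0803, adjusted p = 0.437), and it was 0.53 without the 3 tumours. Cd3e had 1.19, 1.99 and 6.73 CPM under anti-PD-1, against 1.37, 3.11 and 5.96 CPM under IgG2a, and its log2 fold change was -0.10 ± 0.40 (SE; edgeR, adjusted p = 0.908). The Cd3e values of the antibodies overlapped over nearly their whole range.

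Ifngr1, the chain that binds the cytokine, had 43.8, 52.9 and 83.9 CPM in anti-PD-1 tumours, against 40.3, 55.0 and 221 CPM in IgG2a tumours. The groups overlapped. The 221 CPM belonged to IgG2a tumour 7, and the next IgG2a tumour had 63.3 CPM, a value that 2 anti-PD-1 tumours exceeded. The estimate of -0.36 ± 0.32 (log2 fold change, SE; edgeR, adjusted p = 0.588) became 0.18 without the 3 tumours, 0.14 without IgG2a tumour 7 alone and 0.14 in DESeq2, which replaces the count of that tumour as an outlier. In that tumour the macrophage markers were at 3.76-fold and the fibroblast markers at 5.12-fold of the median tumour, and their part in its Ifngr1 level was not tested. Ifngr2, the signalling chain, had 43.8, 58.3 and 77.9 CPM under anti-PD-1, against 48.7, 51.1 and 88.4 CPM under IgG2a, and its log2 fold change was 0.06 ± 0.16 (SE; edgeR, adjusted p = 0.881).

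Jak1, the kinase on the IFNGR1 chain, had 142, 256 and 293 CPM in anti-PD-1 tumours, against 201, 286 and 347 CPM in IgG2a tumours. Only 1 of 8 anti-PD-1 tumours lay above the IgG2a median, and the lowest value, 142 CPM, was that of anti-PD-1 tumour 6. The log2 fold change was -0.24 ± 0.14 (SE; edgeR, unadjusted p = 0.103, adjusted p = 0.448) and -0.25 without the 3 tumours (unadjusted p = 0.0194). Jak2, the kinase on the IFNGR2 chain, had 27.3, 44.4 and 58.1 CPM under anti-PD-1, against 40.7, 48.5 and 82.7 CPM under IgG2a. Its lowest and highest values again belonged to anti-PD-1 tumour 6 and IgG2a tumour 7, and its log2 fold change of -0.20 ± 0.16 (SE; edgeR, adjusted p = 0.566) was -0.01 without the 3 tumours.

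Socs1, the inhibitor of the kinases, had 27.7, 36.5 and 63.3 CPM in anti-PD-1 tumours, against 10.9, 33.8 and 41.4 CPM in IgG2a tumours. The groups overlapped, with 6 of 8 anti-PD-1 tumours above the IgG2a median and the lowest value in IgG2a tumour 7. Of the genes with a higher estimate Socs1 had the smallest p, with a log2 fold change of 0.37 ± 0.23 (SE; edgeR, unadjusted p = 0.122, adjusted p = 0.457). Without the 3 tumours it was 0.20.

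Among the transcription factors, Irf1 had 101, 127 and 175 CPM in anti-PD-1 tumours, against 87.8, 114 and 151 CPM in IgG2a tumours. It was higher than the IgG2a median in 6 of 8 anti-PD-1 tumours, with a log2 fold change of 0.19 ± 0.14 (SE; edgeR, adjusted p = 0.534) that was 0.05 without the 3 tumours. Irf8, a factor of myeloid cells that interferon-gamma also induces, had 42.4, 58.4 and 78.6 CPM under anti-PD-1, against 40.001, 53.2 and 86.4 CPM under IgG2a. Its log2 fold change was -0.01 ± 0.17 (SE; edgeR, adjusted p = 0.976), and that of Batf2, a partner of IRF proteins in activated macrophages, was 0.14 ± 0.24 (SE; edgeR, adjusted p = 0.796).

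Of the 10 GBP genes 4 had a higher and 6 a lower estimate under anti-PD-1, from -1.04 for Gbp10 to 0.45 for Gbp8, and none passed. Gbp2, the most abundant, had 149, 216 and 449 CPM in anti-PD-1 tumours, against 141, 179 and 299 CPM in IgG2a tumours. The 449 CPM belonged to anti-PD-1 tumour 1, the next anti-PD-1 tumour had 249 CPM, and the log2 fold change of 0.17 ± 0.22 (SE; edgeR, adjusted p = 0.703) was -0.03 without tumour 1. Gbp5, which promotes inflammasome assembly, had 49.0, 70.3 and 100.3 CPM under anti-PD-1, against 43.7, 71.1 and 88.4 CPM under IgG2a. Its groups overlapped over most of their range, and its log2 fold change was 0.0015 ± 0.16 (SE; edgeR, adjusted p = 0.997). Gbp8 had 5.41, 11.9 and 21.5 CPM under anti-PD-1, against 3.88, 8.11 and 15.98 CPM under IgG2a, and its log2 fold change was 0.45 ± 0.35 (SE; edgeR, adjusted p = 0.528). It was 0.27 without anti-PD-1 tumour 5 and 0.30 without the 3 tumours.

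Several GBP genes cannot be counted cleanly. The main transcripts of Gbp6, Gbp10 and the predicted gene Gm43302 on chromosome 5 were 99.17 to 99.85% identical to each other over at least 3131 bases, so the authors' division of reads among them is uncertain. Gbp10 had no value above its IgG2a median of 3.85 CPM in any of the 8 anti-PD-1 tumours and 0 CPM in anti-PD-1 tumour 6, but for the sum of the 3 genes the estimate was -0.17 ± 0.18 on the log2 scale (SE; edgeR, adjusted p = 0.651). Gbp4, Gbp8, Gbp9 and Gbp11 were 85.62 to 93.76% identical over long stretches to each other or to these genes, and the annotated loci of Gbp4, Gbp8 and Gbp9 overlap. Gbp11, annotated as a polymorphic pseudogene, had at most 3.40 CPM in any tumour.

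Of the 9 IRG genes 4 had a higher and 5 a lower estimate. Igtp, whose protein is also called Irgm3, had 95.1, 129 and 221 CPM in anti-PD-1 tumours, against 72.6, 136 and 162 CPM in IgG2a tumours. Irgm1, a regulator of the other IRG proteins, had 120.0, 157 and 220.2 CPM under anti-PD-1, against 127, 156 and 199 CPM under IgG2a. The ranges overlapped, with 3 anti-PD-1 tumours above the highest IgG2a value of Igtp and 1 above that of Irgm1. The log2 fold changes were 0.15 ± 0.19 for Igtp and -0.0040 ± 0.12 for Irgm1 (SE; edgeR, adjusted p = 0.705 and 0.989).

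Irgm2, the third of the regulators, had the lowest estimate of these. It had 59.1, 90.6 and 115 CPM in anti-PD-1 tumours, against 85.5, 112 and 129 CPM in IgG2a tumours, and 1 of 8 anti-PD-1 tumours lay above the IgG2a median. Its log2 fold change was -0.33 ± 0.14 (SE; edgeR, unadjusted p = 0.0319, adjusted p = 0.434), and leaving out any single tumour left it between -0.40 and -0.27. The loci of Igtp and Irgm2 overlap on chromosome 11, and their main transcripts share 89.85% identity over 542 bases.

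F830016B08Rik, an IRG gene on chromosome 18 close to Iigp1 and Gm4951, had the smallest p of the set. It had 1.16, 2.19 and 4.51 CPM in anti-PD-1 tumours, against 2.43, 5.37 and 19.4 CPM in IgG2a tumours. No anti-PD-1 tumour reached the IgG2a median, though the ranges overlapped. The 2 highest values, 19.4 and 13.8 CPM, belonged to IgG2a tumours 3 and 7, those with muscle and adipocyte markers, and the part of that tissue in the result was not tested. The log2 fold change of -1.65 ± 0.44 (SE; edgeR, unadjusted p = 0.00153, adjusted p = 0.434) was -0.78 without the 3 tumours (unadjusted p = 0.0164). Parts of the 3297-base transcript resemble other genes, such as Gm42669 at 85.48% over 785 bases and Gm13936 at 92.04% over 490 bases. Whether reads were shared with them was not tested.

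None of the other IRG genes passed. Iigp1, a GTPase that loads onto parasite vacuoles, and its neighbour Gm4951 had log2 fold changes of -0.09 ± 0.16 and -0.30 ± 0.19 (SE), and Ifi47 one of 0.16 ± 0.15 (SE). The main transcript of Gm4951 was 86.48% identical to Iigp1 over 1280 bases. Tgtp1 and Tgtp2 were 99.75% identical over 2811 bases and are best read as a sum, which had 66.8, 76.5 and 142 CPM in anti-PD-1 tumours, against 51.0, 86.7 and 108 CPM in IgG2a tumours. The log2 fold change of the sum was 0.05 ± 0.18 (SE; edgeR, adjusted p = 0.910).

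Of the other induced genes, Ido1, which breaks down tryptophan, had 0.155, 0.352 and 4.16 CPM in anti-PD-1 tumours, against 0.207, 0.532 and 30.0 CPM in IgG2a tumours. All but 1 of the IgG2a tumours lay at or below 0.728 CPM, and the 30.0 CPM was that of IgG2a tumour 7. Its log2 fold change of -1.98 ± 1.14 (SE; edgeR, adjusted p = 0.447) became 1.13 without that tumour and 0.31 in DESeq2, which replaced the counts of IgG2a tumour 7 and anti-PD-1 tumour 5. Ubd, a ubiquitin-like protein, had its highest value of 34.0 CPM in the same tumour, and its log2 fold change of 0.25 ± 0.67 (SE; edgeR, adjusted p = 0.867) became 1.28 without it. The serpins Serpina3f and Serpina3g, which inhibit proteases, had log2 fold changes of 0.07 ± 0.35 and 0.36 ± 0.30 (SE), and since they are 88.95 to 88.99% identical over at least 1756 aligned bases and resemble other Serpina3 genes, their separate levels are uncertain.

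**Figure D3:**
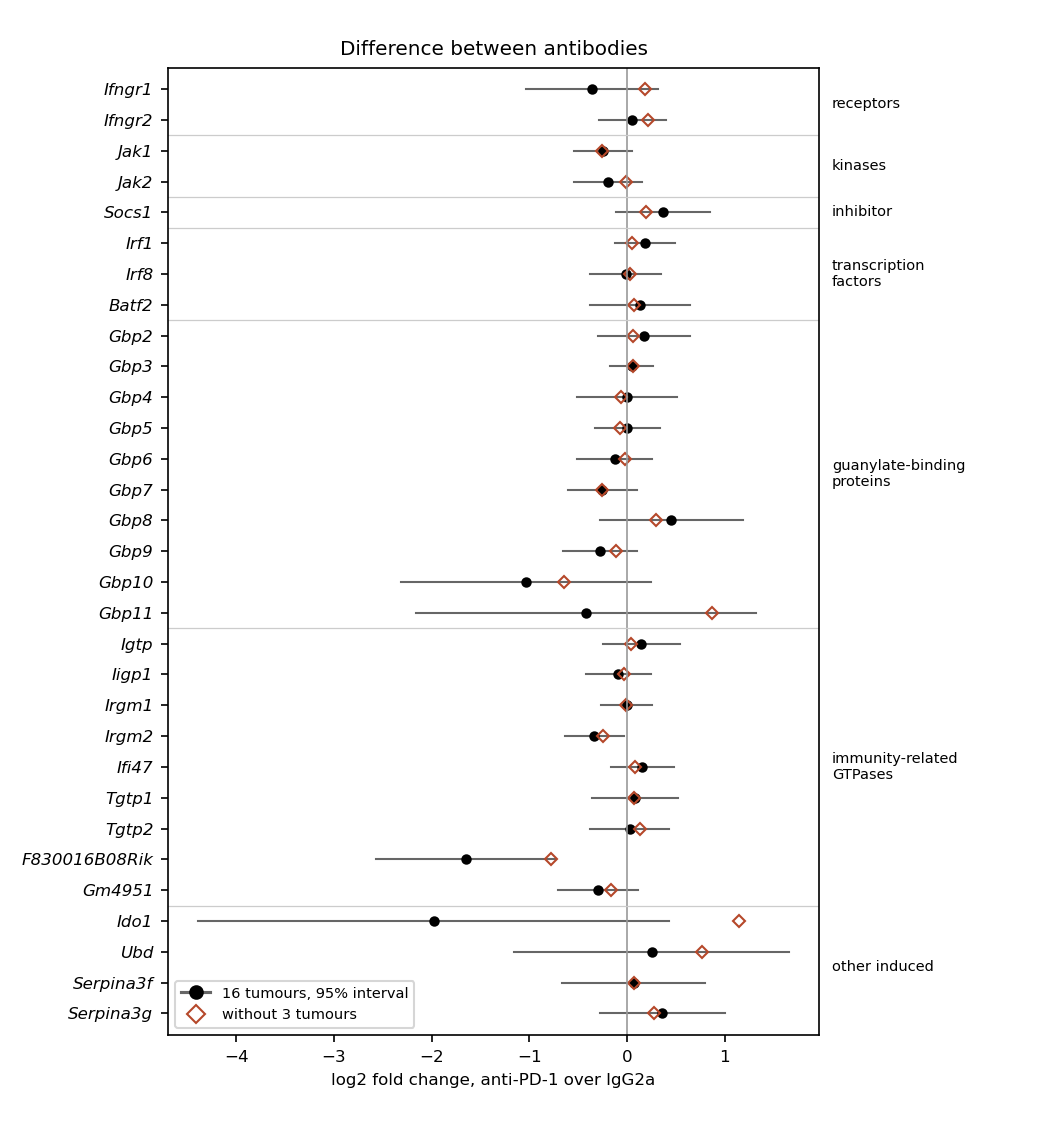
Log2 fold change of the 31 genes, anti-PD-1 over IgG2a, with 95% intervals from edgeR over 16 tumours (black) and the estimate without anti-PD-1 tumour 6 and IgG2a tumours 3 and 7 (open diamonds). The intervals of all genes but Irgm2 and F830016B08Rik cross 0, and Ifngr1, Irf8, Gbp5, Gbp11 and Ido1 change sign without the 3 tumours.

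The second question was which genes followed Ifng across the 16 tumours. Pearson's r of log2 CPM with Ifng was positive for 21 of the 31 genes, with a median of 0.37, where 46.4% of all 16153 genes tested were positive and the median was -0.05. By a permutation test with Benjamini-Hochberg adjustment over all of these genes, 2 of the 31 passed, Irf1 and Socs1, against 0.142% of all genes. At an unadjusted permutation p under 0.05 there were 14 of the 31, 11 of them positive, against 23.1% of all genes and 11.7% with a positive r. Without anti-PD-1 tumour 6 there were 13 of the 31 at an unadjusted permutation p under 0.05, all positive. The share of all genes was then 10.2%, and 4.965% with a positive r.

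Irf1 followed Ifng most closely, with r = 0.91 (permutation p = 2e-05, adjusted p = 0.0404) and Spearman's rho = 0.88 (permutation p = 6e-05, adjusted p = 0.0485). Without IgG2a tumour 7 and anti-PD-1 tumour 1, the tumours farthest from the median of Ifng, r was 0.88 (permutation, adjusted p = 0.0673). Within the antibodies r was 0.90 in the 8 anti-PD-1 tumours (exact permutation p = 0.00389) and 0.92 in the 8 IgG2a tumours (exact permutation p = 0.00211). When single tumours were left out, r stayed between 0.89 and 0.94.

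Socs1 had r = 0.78 with Ifng (permutation p = 4e-05, adjusted p = 0.0404) and rho = 0.80 (permutation p = 0.000410, adjusted p = 0.123). Without the 2 farthest tumours r was 0.75 (permutation, adjusted p = 0.140). It was 0.85 in anti-PD-1 tumours (exact permutation p = 0.00873) and 0.72 in IgG2a tumours (exact permutation p = 0.00853), and IgG2a tumour 7 was lowest for both Ifng and Socs1. With single tumours left out, r stayed between 0.72 and 0.82. Socs1 then passed only without IgG2a tumour 1 or 3 or anti-PD-1 tumour 4 or 7. The calls of Irf1 and Socs1 over the 16 tumours lie near the smallest p of 1e-05 that 100000 resamples can give. With values centred on the group means no gene of the series passed, 0% of those tested (permutation, adjusted p = 0.162 for Irf1 and for Socs1). There r was 0.90 for Irf1 and 0.74 for Socs1, and 0.162 was the smallest adjusted p of the series. After adjustment over all genes, even the smallest possible p passes only if several genes have a p near it. This count of 0 therefore cannot show that the relation is absent within the groups.

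Several genes that did not pass had an r near that of Socs1 or above it, namely Gbp8 with r = 0.83, Serpina3g with 0.80, Gbp2 with 0.78, Igtp with 0.74 and Ifi47 with 0.73 (permutation, adjusted p from 0.0635 to 0.0941). By Spearman's rho 0.124% of all genes passed, and of the 31 these were Irf1 and Gbp8, Gbp8 with rho = 0.86 (permutation, adjusted p = 0.0475). Within groups Gbp2 had r = 0.76 in anti-PD-1 tumours (exact permutation p = 0.00719) and 0.81 in IgG2a tumours (exact permutation p = 0.0222). Igtp had r = 0.64 in anti-PD-1 tumours (exact permutation p = 0.0898) and 0.88 in IgG2a tumours (exact permutation p = 0.00263).

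**Figure D4:**
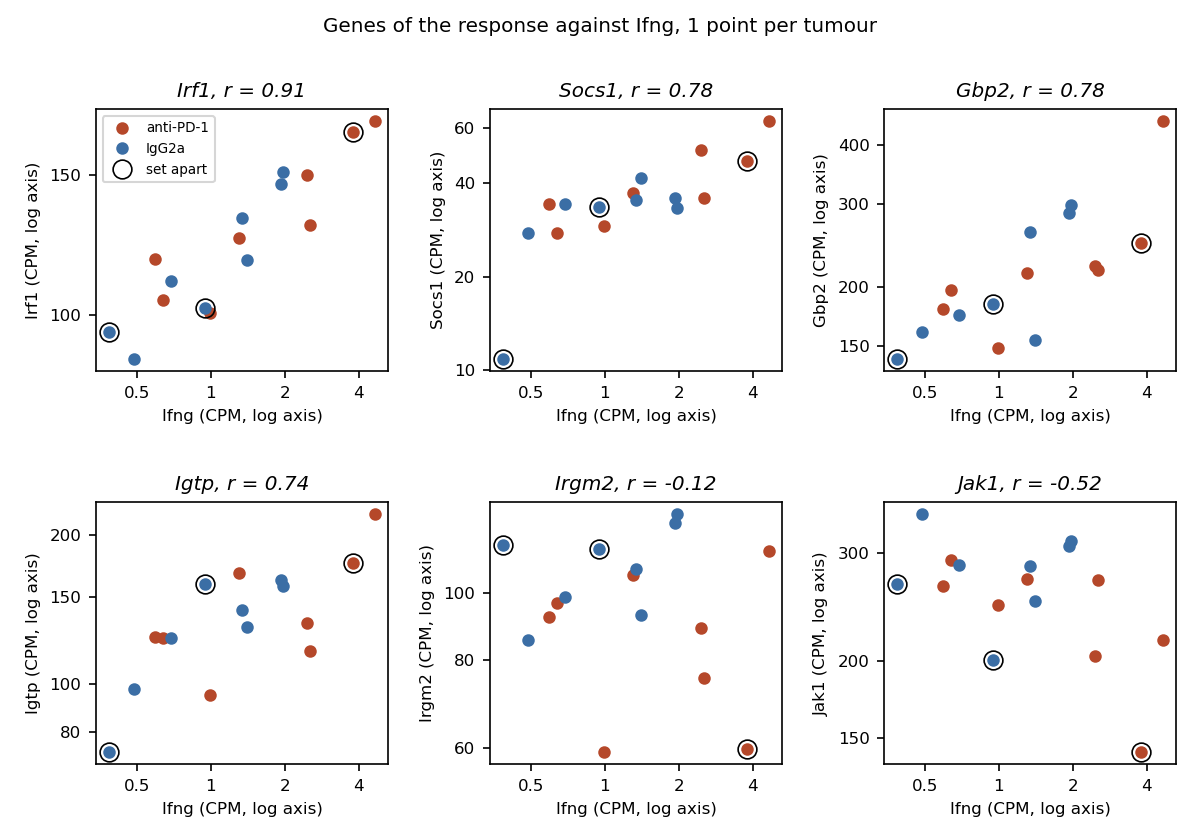
Irf1, Socs1, Gbp2, Igtp, Irgm2 and Jak1 against Ifng, both in CPM on log axes, 1 point per tumour, with the 3 tumours named in the text ringed. Irf1 climbs with Ifng in both groups (r = 0.91), while Irgm2 (r = -0.12) and Jak1 (r = -0.52) do not.

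Within families r with Ifng ran from negative to positive. Irgm2, whose upstream stretch matched that of Igtp in 44 of 45 letters, had r = -0.12 with Ifng, where Igtp had 0.74. Within the IRG genes r ran from -0.51 for F830016B08Rik and Gm4951 to 0.74 for Igtp, and within the GBP genes from -0.40 for Gbp9 to 0.83 for Gbp8. Jak1 had r = -0.52 (permutation p = 0.0357, adjusted p = 0.186) and Jak2 r = -0.33. Anti-PD-1 tumour 6 combined the second highest Ifng, 3.78 CPM, with the lowest Jak1, Jak2, Gbp9 and Gm4951 of its group, and without it r was -0.37 for Jak1, 0.12 for Irgm2 and -0.39 for Gm4951.

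Without the 3 tumours named above, 28 of the 31 genes had a positive r with Ifng, against 49.6% of all genes, with a median of 0.63, and no gene of the series passed. The 3 left with a negative r were Jak1 at -0.55, F830016B08Rik at -0.25 and Gm4951 at -0.25. Values above 0.8 were those of Irf1 at 0.89, Tgtp2 at 0.87, Serpina3f at 0.86, Serpina3g at 0.86, Ubd at 0.83 and Gbp8 at 0.83. The receptor genes moved to 0.58 for Ifngr1 and 0.63 for Ifngr2, against -0.17 and 0.22 over all 16 tumours. At an unadjusted permutation p under 0.05 there were 19 of the 31, all positive, against 20.6% of all genes and 10.4% with a positive r.

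Cd3e, as a measure of T cell RNA, gave another order. Its r was positive for 30 of the 31 genes, with a median of 0.37, where 54% of all genes were positive. No gene of the series passed, 0% of 16153 by the permutation test with Benjamini-Hochberg adjustment, and by Spearman's rho the count was also 0. In both, the smallest adjusted p of the series was 0.162, a value limited by the smallest p that the resamples can give. These counts therefore do not show that no gene is related to Cd3e. At an unadjusted permutation p under 0.05 there were 8 of the 31, all positive, against 3.13% of all genes and 2.11% with a positive r. They were Serpina3f with r = 0.81, Serpina3g with 0.78, Gbp8 with 0.69, Gbp4 with 0.61, Tgtp2 with 0.60, Gbp6 with 0.59, Gbp10 with 0.56 and Tgtp1 with 0.53.

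Irf1 had r = 0.44 with Cd3e (permutation p = 0.0926) and Socs1 r = 0.40 (permutation p = 0.114), both below their values with Ifng. Serpina3f was closer to Cd3e than to Ifng, where it had r = 0.64, and its r with Cd3e was 0.85 in anti-PD-1 tumours (exact permutation p = 0.00677) and 0.80 in IgG2a tumours (exact permutation p = 0.0173). The difference between the 2 relations of a gene was not tested. Ifng and Cd3e themselves had r = 0.49 (permutation p = 0.0539, adjusted p = 0.224) over the 16 tumours and r = 0.82 without the 3 tumours.

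The calls with Cd3e depended on which tumours were used. Without IgG2a tumour 7, 110 genes of the series passed, 0.681% of those tested, with Serpina3f among them. Without anti-PD-1 tumour 6, 23 genes passed, 0.142%, with Serpina3g among them. Without the 3 tumours 461 genes passed, 2.85% of those tested, and 6 of the 31 were among them, namely Gbp8, Irf1, Serpina3f, Serpina3g, Tgtp2 and Ubd. There Irf1 had r = 0.80 with Cd3e and Ubd 0.76, where Ubd had 0.04 over all 16 tumours.

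**Figure D5:**
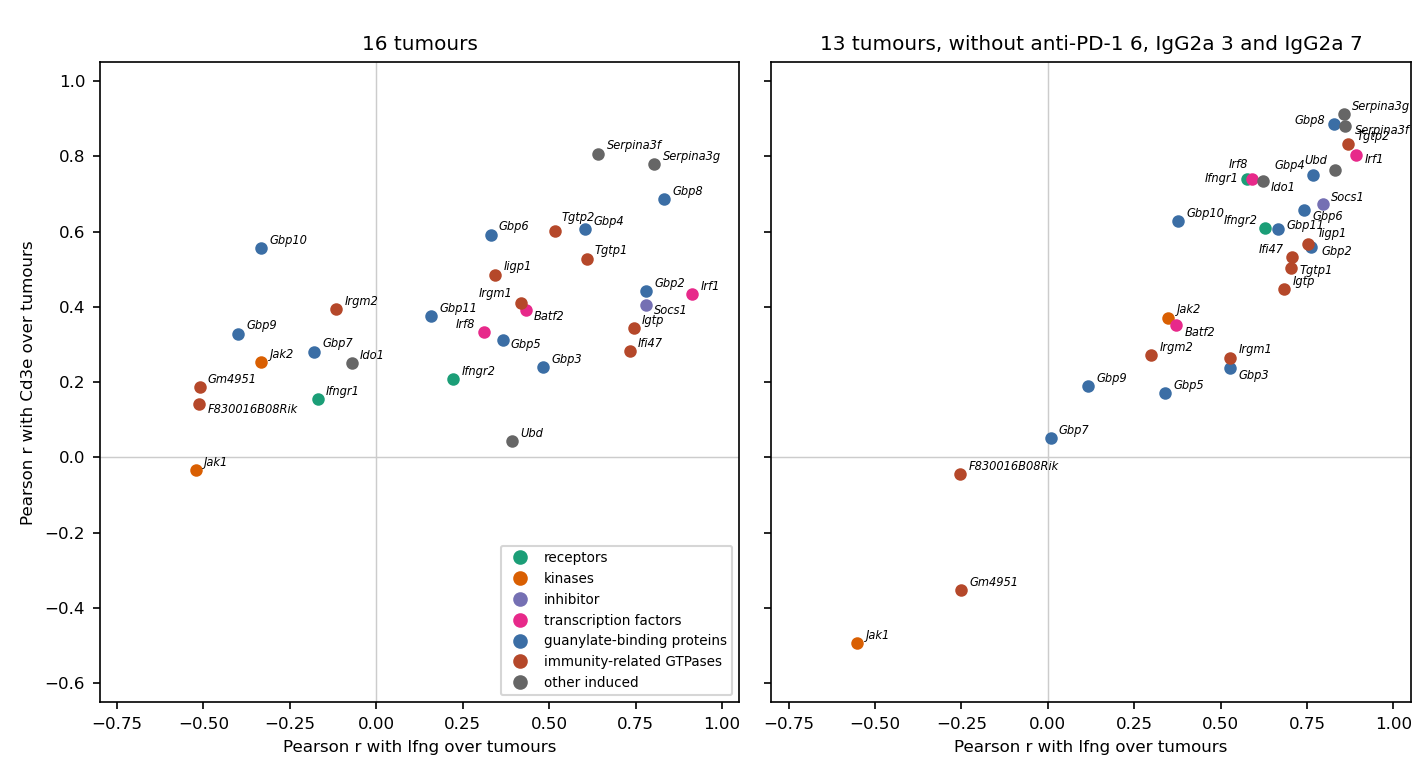
Pearson's r with Ifng (horizontal) and with Cd3e (vertical) for the 31 genes, coloured by role, over 16 tumours (left) and over 13 tumours (right). Over 16 tumours Irf1 lies at the far right and Serpina3f at the top, and over 13 tumours, where Ifng and Cd3e themselves have r = 0.82, the genes line up along the diagonal.

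Ifng was also set beside Cd3e and antibody in a single edgeR fit. No slope on Ifng passed after adjustment, 0% of 16152 genes, and 11 of the 31 slopes had an unadjusted p under 0.05, against 22.4% of all genes. Per doubling of Ifng at a given Cd3e, Irf1 was higher by 0.27 ± 0.05 log2 units, Gbp2 by 0.35 ± 0.09, Socs1 by 0.33 ± 0.11 and Gbp8 by 0.40 ± 0.11 (SE; edgeR, adjusted p = 0.0980, 0.0983, 0.123 and 0.103). Of the 31 slopes 20 were positive and 11 negative, where 40.4% of all genes tested had a positive slope. A negative slope with an unadjusted p under 0.05 was found for 1830 of the 16152 genes. Among the 31 these were Gbp9 at -0.28 ± 0.11, Gm4951 at -0.31 ± 0.13, F830016B08Rik at -0.64 ± 0.25 and Gbp10 at -0.98 ± 0.44 (SE). Without the 3 tumours the slopes were 0.22 for Irf1, 0.51 for Gbp2, 0.25 for Socs1 and 0.13 for Gbp8. They were then 0.02 for Gbp9, 0.11 for Gm4951, -0.22 for F830016B08Rik and -0.05 for Gbp10. In that fit 26 of the 31 slopes were positive, against 49.6% of all genes. An unadjusted p under 0.05 was found for 9 of the 31, against 5.17% of all genes, and no gene passed. Leaving out IgG2a tumour 3 brought 1918 genes of the series, 11.7%, and 5 of the 31 past the threshold. Leaving out IgG2a tumour 7 brought 30 genes, 0.184%, and 2 of the 31.

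Whether the slope on Ifng differed between the antibodies was tested as an interaction. No gene passed in edgeR after adjustment, 0% of 16153, and 4 of the 31 had an unadjusted p under 0.05, against 20.7% of all genes and 16.5% with a steeper slope under anti-PD-1. These were Ubd, Ido1, Ifngr1 and Ifngr2, with steeper slopes under anti-PD-1 by 1.96 ± 0.48, 3.24 ± 0.87, 0.78 ± 0.28 and 0.44 ± 0.15 log2 units per doubling of Ifng (SE; edgeR, adjusted p = 0.105, 0.106, 0.149 and 0.126). All 4 had their highest IgG2a value in IgG2a tumour 7, the tumour lowest in Ifng, and without the 3 tumours the differences were 0.43, 0.88, 0.05 and 0.21. For Irf1 the difference was -0.07 ± 0.09 (SE; edgeR, adjusted p = 0.667). Leaving out IgG2a tumour 4 brought 3368 genes of the series, 20.6%, and 4 of the 31 past the threshold. Leaving out IgG2a tumour 7 left 1 of the 31 with an unadjusted p under 0.05 in edgeR, against 1.42% of all genes. Without the 3 tumours it was 1 of the 31, against 2.11% of all genes.

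Another 39 genes of the pathway, all tested, served as a wider view. Of these 25 had a higher and 14 a lower estimate under anti-PD-1, with a median log2 fold change of 0.16. Over all genes tested 43.1% had a higher estimate, with a median of -0.055, and 53.3% without the 3 tumours. None of the 39 passed, and 2 had an unadjusted p under 0.05, the phosphatases Ptpn2 and Ptpn11, against 11.4% of all genes tested. Cxcl10, a chemokine for T cells, had 96.8, 142 and 183 CPM under anti-PD-1, against 21.9, 90.1 and 167 CPM under IgG2a, and 8 of 8 anti-PD-1 tumours lay above the IgG2a median. Its log2 fold change was 0.53 ± 0.28 (SE; edgeR, unadjusted p = 0.0747, adjusted p = 0.435), that of the related chemokine Cxcl9 was 0.33 ± 0.28, that of Gbp2b was -0.03 ± 0.69 and that of Ciita, the activator of class II genes, was -0.44 ± 0.43 (SE).

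With Ifng, 28 of 38 of these genes had a positive r, against 46.4% of all genes, with a median of 0.42. None passed, and 18 were positive at an unadjusted permutation p under 0.05, against 11.7% of all genes. Gbp2b had r = 0.77, Cxcl9 0.76, Cxcl10 0.56 and Ciita 0.36. With Cd3e, Cxcl9 had r = 0.74 and Cxcl10 had 0.22. Of the T cell markers 11 of 11 had a positive r with Ifng, and Cd3d and Cd3g passed the adjusted test, as did Nkg7 of the NK cell markers, against 0.142% of all genes.

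Reads were divided unevenly among transcripts in some tumours. In anti-PD-1 tumour 6, the transcript Irf1-201 took 77.0% of the Irf1 reads, against at most 11.6% in any other tumour, and Igtp-202 took 47.4% of the Igtp reads, against at most 7.20%. In the same tumour Ifngr2-203, a processed transcript, took 58.4% of the Ifngr2 reads, against at most 0.306% elsewhere. The share of Jak2-201 differed among other tumours too, with 29.0% ± 37.3 of the Jak2 reads in anti-PD-1 tumours and 0.428% ± 1.21 in IgG2a tumours (SD, n = 8 each). Anti-PD-1 tumour 6 also had the fewest transcripts detected. TPM depends on which transcript the reads were given to, and this tumour had the lowest TPM of its group for Irf1, at 63.4 TPM, while its Irf1 of 169.8 CPM was the second highest. By TPM in place of CPM the r of Irf1 with Ifng was 0.58 and no gene of the series passed. For Gbp4 and Gbp6 the transcripts that took most reads, 82.2% for Gbp4-202 and 62.2% for Gbp6-203, are annotated as subject to nonsense-mediated decay, and the libraries do not mark strand, so reads of an antisense gene would count for its partner.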

How the data were processed

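RNA of whole tumours was enriched with oligo-dT beads and sequenced from non-directional libraries, 8 tumours per antibody. The authors deposited estimated counts and TPM per transcript for each tumour, per the file headers; the quantifier is not given in the sources used here. The submitters' processing notes name edgeR, limma and GRCm38, without versions. The deposited TPM values were normalized to transcript length and library by the authors' quantifier before deposit, per the file headers.

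Of 115088 transcripts 114200 were matched by identifier to GENCODE vM21, giving 47311 genes. The unmatched transcripts held 0.167 to 0.217% of reads. Gene totals of the estimated counts were rounded to integers. Genes with at least 10 reads in enough tumours and 15 in all were kept, and libraries were scaled by TMM. Antibody was tested with edgeR's robust quasi-likelihood test (edgeR 4.0.16, R 4.3.3) over all 16 tumours and all 16154 genes, with Benjamini-Hochberg adjustment and a threshold of 0.05. All p-values are two-sided. Correlations used log2 CPM (prior count 2) with 100000 permutations of tumours, adjusted over all genes, and every order of the 8 tumours within an antibody. A further fit held Cd3e and antibody beside Ifng, and another let the Ifng slope differ by antibody. DESeq2 1.42.0, limma 3.58.1, other scalings, no filter, TPM with a pseudocount of 0.1 and leaving out tumours were alternatives. Transcripts were compared with blastn 2.17.0. The scripts for tests were checked on simulated counts, with 50 genes altered at each effect size. For antibody, edgeR recovered 9 at 1.5-fold, 29 at 2-fold and 40 at 8-fold. For the Ifng slope the simulated fold was the change over the whole range of Ifng in the 16 tumours, not per doubling. There edgeR recovered only 1 at 2-fold and 20 at 8-fold. For the slope difference between antibodies the simulated fold was taken over the range of Ifng in the anti-PD-1 tumours. The recovery was 0 at 2-fold and 4 at 8-fold. A count of 0 from these fits therefore cannot show that no gene differs, least of all for the slopes.

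Depth was 59036535 to 82591064 estimated reads per tumour, and the biological coefficient of variation was 0.536. Members and lists were chosen with earlier results of these data known. Values over tumours are given for Ifng, Cd3e, the receptors, kinases, Irf1, Irf8, Socs1, Gbp2, Gbp5, Igtp, Irgm1, Irgm2, Ido1 and the 2 genes of smallest unadjusted p in each direction; of the wider pathway Gbp2b, Ciita, Cxcl9, Cxcl10 and any that passed are named, and Ptpn2, Ptpn11 and other single values were named after they were seen. A result on 1 gene of the wider pathway is not reported here.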

Additional observations from a re-analysis of the deposited data

Results flagged for a closer look

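In each group of 8 tumours the highest and the lowest log2 CPM of each of the 31 genes were compared with the others. In 10 of 62 groups a tumour's gap to its nearest neighbour was too large a part of the group's range by Dixon's 95% critical value. Gap and range were taken on the log scale, while the values below are printed in CPM. Chance flags about 1 in 20 groups. The 62 groups come from the same tumours and are not independent, so the count cannot be tested against that rate.

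Of these, 6 were in IgG2a tumour 7. It stood far above the other IgG2a tumours for Ifngr1 at 221 CPM (next 63.3), for Jak2 at 82.7 CPM (next 53.5), for Ido1 at 30.0 CPM (next 0.728) and for Ubd at 34.0 CPM (next 6.19). It stood far below them for Socs1 at 10.9 CPM (next 27.6) and for Gbp5 at 43.7 CPM (next 64.7). In that tumour the adipocyte markers were at 155-fold, the erythroid markers at 256-fold and the T cell markers at 0.570-fold of the median tumour, and their part in these values was not tested.

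In anti-PD-1 tumour 1, Gbp2 at 449 CPM (next 249) and Iigp1 at 154.5 CPM (next 108) stood far above the other anti-PD-1 tumours. In anti-PD-1 tumour 6, Gbp10 at 0 CPM (next 1.30) and Gm4951 at 6.01 CPM (next 16.2) stood far below them, and in Gbp10 the reads shared with Gbp6 and Gm43302 leave the division uncertain.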

How the results depend on the processing

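No paired analysis was possible because the labels give no replicate numbers shared between the antibodies. Summing near-identical genes, another random seed and Spearman's rho were chosen after seeing the data. No member was called between the antibodies under any alternative run. Depth limits the low genes, with 24 to 355 reads for Ifng; the cause of the changes below was not tested.

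DESeq2 called 4 genes in place of 0 between the antibodies. With no filter 19 genes passed for the Ifng slope and 1 gene for its difference between antibodies. For the relation to Ifng, 0 genes and 0 of the 31 passed with values centred on group means, by TPM, with no filter, without the 2 farthest tumours and without the 3 tumours. Of these counts, the one with centred values is limited by the smallest p that the resamples can give. For Cd3e without the 3 tumours, 461 genes and 6 of the 31 passed. Leaving out single tumours gave 0 to 52 genes and 0 to 3 of the 31 for Ifng, 0 to 110 and 0 to 1 for Cd3e, 0 to 1918 and 0 to 5 for the Ifng slope, and 0 to 3368 and 0 to 4 for its difference. With Ifng no gene passed without IgG2a tumour 2, 4 or 8 or anti-PD-1 tumour 1, 2 or 6.

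The sign of r with Ifng turned without the 3 tumours for Gbp10 (0.38), Gbp7 (0.0080), Gbp9 (0.12), Ido1 (0.62), Ifngr1 (0.58), Irgm2 (0.30) and Jak2 (0.35). It turned without the 2 farthest for Gbp5 (-0.097), Ido1 (0.29) and Ifngr1 (0.42), by TPM for Ifngr2 (-0.31) and centred for Irgm2 (0.10). With Cd3e it turned without the 3 tumours for F830016B08Rik (-0.043) and Gm4951 (-0.35), by TPM for Jak1 (0.30) and without the 2 farthest for Ubd (-0.091).

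The sign of the log2 fold change turned without the 3 tumours for Ifngr1 (0.18), Irf8 (0.026), Gbp5 (-0.070), Gbp11 (0.87) and Ido1 (1.14), and in DESeq2 for Ifngr1 (0.14) and Ido1 (0.31). In limma-voom it turned for Ifngr1 (0.14), Batf2 (-0.11), Gbp2 (-0.083), Gbp3 (-0.0039), Gbp5 (-0.23), Gbp11 (0.82), Igtp (-0.079), Tgtp1 (-0.14) and Serpina3f (-0.021). With no filter it turned for Irf8 (0.00727), Gbp4 (0.012) and Irgm1 (0.0072), with DESeq2 size factors for Gbp4 (0.00089), and with the range of animal numbers as covariate for Gbp5 (-0.021).

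Leaving out single tumours moved r with Ifng across 0 for Gbp10 (-0.38 to 0.097), Gbp11 (-0.077 to 0.52), Gbp7 (-0.27 to 0.090), Ido1 (-0.22 to 0.46), Ifngr1 (-0.28 to 0.47) and Irgm2 (-0.25 to 0.12), and r with Cd3e for F830016B08Rik (-0.014 to 0.27), Gm4951 (-0.46 to 0.27), Jak1 (-0.51 to 0.11) and Ubd (-0.087 to 0.26). It moved the log2 fold change across 0 for Ifngr1 (-0.46 to 0.14), Ifngr2 (-0.00081 to 0.16), Irf8 (-0.085 to 0.086), Batf2 (-0.0057 to 0.29), Gbp2 (-0.027 to 0.27), Gbp3 (-0.0092 to 0.10), Gbp4 (-0.16 to 0.12), Gbp5 (-0.090 to 0.063), Gbp11 (-0.77 to 0.78), Irgm1 (-0.085 to 0.052), Tgtp1 (-0.088 to 0.15), Tgtp2 (-0.090 to 0.11), Ido1 (-2.76 to 1.13), Ubd (-0.12 to 1.28), Serpina3f (-0.22 to 0.26) and Cd3e (-0.38 to 0.073).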
